A study of Mus musculus with 11 samples.

Results

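Genes that a mature beta cell keeps at low levels, and genes that reappear when it loses its identity, were followed in whole pancreatic islets of wild-type and PDX1 P33T mice. Of the 19329 gene IDs in the deposited table, 9 were chosen by name for this purpose, namely *Ldha*, *Slc16a1*, *Hk1*, *Oat*, *Cxcl12* and *Igfbp4* as genes repressed, or disallowed, in beta cells, *Rest* as a repressor of neuroendocrine genes, and *Aldh1a3* and *Gast* as genes reported in dedifferentiating beta cells. All 9 were listed and were above 0 throughout the PDX1 P33T libraries, so none of them was lost to the authors' filter, which asked for values in 80% of the libraries of either genotype.

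The islets came from 14-week-old, chow-fed male mice that were either wild-type or PDX1 P33T/P33T, that is homozygous for the replacement of proline by threonine at residue 33 of PDX1, the homeodomain factor that maintains beta cells. The line was made by gene editing of one-cell embryos of the C57BL/6N strain, no treatment was given, and isolated islets were kept in culture for 24 to 48 hours. RNA was sequenced in bulk in 6 wild-type and 5 PDX1 P33T libraries. The study states that each biological replicate was collected from 6 individual mice. Therefore n and SD refer to libraries, and p-values measure the spread between libraries, not between mice. In bulk RNA, fewer cells of a type and less RNA per cell cannot be told apart.

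In the beta cell, glucose carbon ends in mitochondria, which couples glucose to insulin release. Little lactate dehydrogenase A, little high-affinity hexokinase and little lactate and pyruvate transport at the plasma membrane belong to this arrangement, and the genes of these proteins are therefore called disallowed. Loss of beta cell identity is commonly followed by genes of the progenitor or endocrine repertoire, of which *Aldh1a3*, a retinaldehyde dehydrogenase, is the most used marker.

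Depth and the position of the wild-type values limit what can be compared. The libraries held 19311937 to 37094286 reads in wild-type and 23731684 to 36865206 in PDX1 P33T, and the value of 1 read on a gene of 1 kb was 0.027 to 0.0518 FPKM, a unit that scales the reads of a gene to its length and to the reads counted in the library. As deposited, wild-type values are mostly found on rows of other genes, whereas PDX1 P33T values are on the rows of their own. The gene lengths at which the members' PDX1 P33T values become whole reads equalled the summed exons of GENCODE vM21 for 9 of 9 members. The wild-type row could be found by its reads for *Hk1* and *Aldh1a3*, and by gene length and level (means within 3-fold, no other candidate within 3-fold) for *Slc16a1*, *Rest* and *Cxcl12*. *Oat* and *Igfbp4* were placed by a 2-fold limit alone, and *Ldha* and *Gast* could not be placed. Not every gene of these lengths had a wild-type row found. At the length of *Rest* the 2 rows averaged 0.324 and 0.0431 FPKM, neither near *Bcl7c* (3.18 FPKM in PDX1 P33T). At the length of *Slc16a1* there were 2 rows and 3 other genes. Placement by level is therefore less certain than placement by reads. A member placed by level cannot show a change beyond that limit, and the reads that placed *Hk1* and *Aldh1a3* come from a portion of a list of the study on these samples, so their presence in it is not independent evidence of a change. *Pdx1* itself had 79.0 ± 0.881 FPKM in PDX1 P33T (SD, n = 5) with no wild-type row placed. A gene's level cannot show whether 1 base of its sequence is changed, so the labels were not checked by *Pdx1*.

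The members lie on chromosomes 7 (*Ldha*, *Oat*, *Aldh1a3*), 3 (*Slc16a1*), 10 (*Hk1*), 5 (*Rest*), 11 (*Gast*, *Igfbp4*) and 6 (*Cxcl12*). RefSeq promoter windows were held for 7 of the 9 members, with none for *Aldh1a3* and *Rest*, and the 250 bases before the start were searched on both strands for the core of PDX1 and related homeodomain factors (TAATTA or TAATTG), for the E-box CACGTG, for the hypoxia factor core ACGTG outside an E-box, and for the TATA box TATAAA. The windows of the lactate dehydrogenase gene *Ldha* and the lactate transporter gene *Slc16a1* are shown because these genes form the classical disallowed pair, and that of *Gast* because it alone among the 9 windows of the 7 members held a homeodomain core. They are given 5′ to 3′ on the plus strand of GRCm38.p6 at chr7:46845554-46845803, chr3:104638414-104638663 and chr11:100334157-100334406, with the matches in capitals. The reads were aligned to GRCm39, and no position on it is given.
Ldha: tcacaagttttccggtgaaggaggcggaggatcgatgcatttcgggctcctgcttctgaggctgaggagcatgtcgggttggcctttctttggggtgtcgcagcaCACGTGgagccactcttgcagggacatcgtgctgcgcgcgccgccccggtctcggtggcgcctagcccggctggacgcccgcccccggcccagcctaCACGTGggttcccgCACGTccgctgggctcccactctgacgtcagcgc
Slc16a1: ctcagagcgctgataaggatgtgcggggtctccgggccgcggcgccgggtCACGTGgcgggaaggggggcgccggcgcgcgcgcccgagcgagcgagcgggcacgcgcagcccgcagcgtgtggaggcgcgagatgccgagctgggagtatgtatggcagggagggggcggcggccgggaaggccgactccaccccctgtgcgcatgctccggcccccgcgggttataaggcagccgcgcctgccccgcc
Gast: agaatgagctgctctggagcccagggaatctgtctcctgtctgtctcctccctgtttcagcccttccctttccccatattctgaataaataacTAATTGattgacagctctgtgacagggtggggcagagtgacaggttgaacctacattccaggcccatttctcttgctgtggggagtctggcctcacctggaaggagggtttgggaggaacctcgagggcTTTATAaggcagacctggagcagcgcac

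The *Ldha* window held the E-box at 145 and at 48 bases before the start, counted from its first base, and ACGTG on the minus strand at 34 bases. The *Slc16a1* window held 1 E-box at 200 bases, and the *Gast* window held TAATTG at 157 bases and TATAAA on the minus strand at 28 bases. *Igfbp4* had TATAAA at 28 bases, and the second *Ldha* window and the windows of *Hk1*, *Oat* and *Cxcl12* held none of these letters. Of 32536 windows of this length, 6.04% held CACGTG, 16.7% ACGTG (E-boxes included), 7.18% TAATTG, 4.84% TAATTA and 12.3% TATAAA, so each match is a common one and describes the sequence only.

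In PDX1 P33T islets the members covered a wide range of levels, led by *Ldha* at 6.96 ± 1.22 FPKM (SD, n = 5) and ending with *Rest* at 0.189 ± 0.0657 FPKM. Only *Ldha* and *Oat* lay above the middle of the table, with 75.7% and 62.4% of the 18963 genes that passed the 80% rule in PDX1 P33T below them, against 48.0% for *Gast*, 47.2% for *Hk1* and 19.8% to 30.2% for the other 5. Going down the order, *Ldha* was above *Oat*, *Oat* above *Gast*, and *Hk1* above *Slc16a1* without overlap of their ranges over the 5 libraries. The remaining neighbours overlapped, which are *Gast* with *Hk1*, *Slc16a1* with *Aldh1a3*, *Aldh1a3* with *Igfbp4*, *Igfbp4* with *Cxcl12* and *Cxcl12* with *Rest*.

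**Figure D1:**
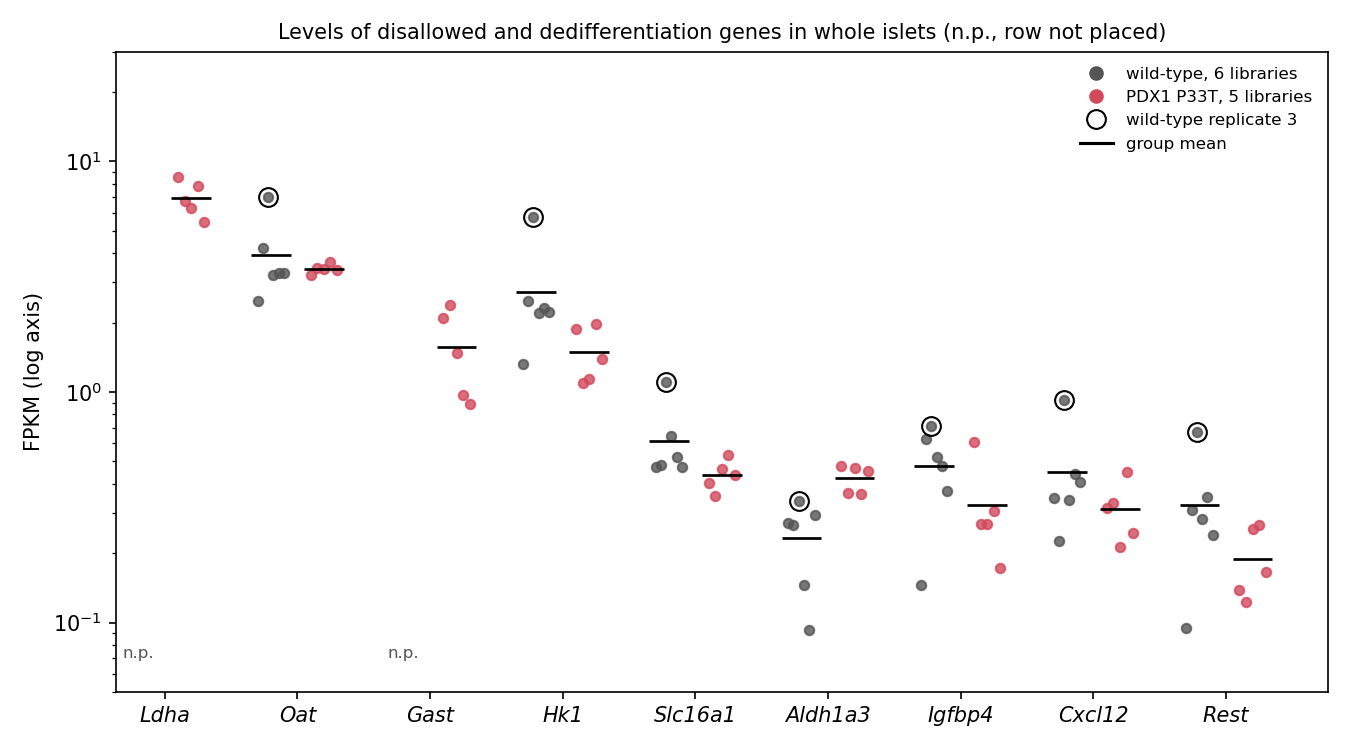
FPKM (log axis) of the 9 members in each library, wild-type in grey and PDX1 P33T in red, with the group mean as a line and wild-type replicate 3 circled. The 5 PDX1 P33T values of *Aldh1a3*, 0.361 to 0.475, sit above the 6 wild-type values, while wild-type replicate 3 is the highest library for the other 6 members placed in wild-type (n.p., not placed).

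The lactate pair came first. *Ldha*, which turns pyruvate into lactate, measured 8.54, 6.71, 6.29, 7.81 and 5.47 FPKM in PDX1 P33T replicates 1 to 5, from 527 to 760 reads. Replicates 1 and 4 were the highest, and the spread between libraries (coefficient of variation 17.5%) was wider than read counting alone would give (3.93%). *Ldhb*, the subunit that favours the reverse reaction, stood at 7.49 ± 0.706 FPKM, and the ratio of *Ldha* to *Ldhb* within a library averaged 0.937 ± 0.199 (SD, n = 5), from 0.740 to 1.25, above 1 in 1 of 5 libraries.

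No wild-type value can be given for *Ldha*. Besides a row near 0, 3 wild-type rows had its length of 3310 bases, with means of 9.67, 4.503 and 3.34 FPKM, and 2 further genes of that length, *Med27* and *Wdr45*, had 4.31 and 3.17 FPKM in PDX1 P33T. The row nearest in level to *Ldha* read 4.15, 11.1, 19.5, 8.06, 7.56 and 7.64 FPKM in wild-type replicates 1 to 6, a range that takes in the 5 PDX1 P33T values. No test was run on it.

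*Slc16a1* encodes MCT1, which carries lactate and pyruvate across the membrane, and it was low in both genotypes. In PDX1 P33T it measured 0.403, 0.352, 0.462, 0.532 and 0.435 FPKM, with 37 to 71 reads, and in wild-type the lowest, median and highest values were 0.475, 0.5005 and 1.10 FPKM. Of the PDX1 P33T libraries, 4 were under the lowest wild-type value and replicate 4 was among the wild-type values. The log2 fold change was -0.37 (SE 0.20) and did not pass (limma, Benjamini-Hochberg adjusted p = 0.641), as was the case with the exact permutation test over the libraries (two-sided p = 0.0693). Without wild-type replicate 3 the log2 fold change was -0.21. *Slc16a3*, the gene of the lactate exporter MCT4, was above *Slc16a1* in 5 of 5 PDX1 P33T libraries, by 1.78 ± 0.425 times, and its difference between genotypes was -0.40 on the log2 scale (SE 0.35, adjusted p = 1).

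For orientation, 6 of 7252 genes with placed wild-type values (0.0827%) were called between genotypes (limma, adjusted p up to 0.05, change of 1.5-fold or more), with 3 higher and 3 lower in PDX1 P33T. No member was among them: 0 of the 5 members in that fit, and 0 of the 2 placed by the 2-fold limit, passed. At an unadjusted limma p below 0.05, 11.7% of the genes were higher and 13% were lower, and 1 member was found on each side, *Aldh1a3* higher and *Hk1* lower. With 5 members in the fit, nothing is read from these counts.

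*Hk1* is the high-affinity hexokinase that would let glucose be phosphorylated at low concentrations. Its PDX1 P33T values were 1.87, 1.09, 1.13, 1.98 and 1.39 FPKM (221 to 437 reads), and its wild-type values ran from 1.32 over a median of 2.27 to 5.75 FPKM. In 5 of 6 wild-type libraries the level was above all 5 PDX1 P33T libraries, while wild-type replicate 1 lay within their range and replicate 3 stood far above all others. Wild-type averaged 2.71 ± 1.54 FPKM (SD, n = 6) and PDX1 P33T 1.49 ± 0.412, a log2 fold change of -0.72 (SE 0.29, limma adjusted p = 0.489; exact permutation p = 0.0433). Without wild-type replicate 3 the wild-type mean was 2.11 ± 0.451 FPKM, the log2 fold change was -0.48 and the exact permutation p was 0.0635.

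Within PDX1 P33T libraries, *Hk1* was above its relatives *Hk2* and *Hkdc1*. *Hk2* was at 0.133 ± 0.0618 FPKM and *Hkdc1* at 0.0154 ± 0.00823 FPKM, and *Hk1* was 13.4 ± 6.08 times above *Hk2* (SD, n = 5), from 5.90 to 22.1 times. Neither relative could be placed in wild-type.

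**Figure D2:**
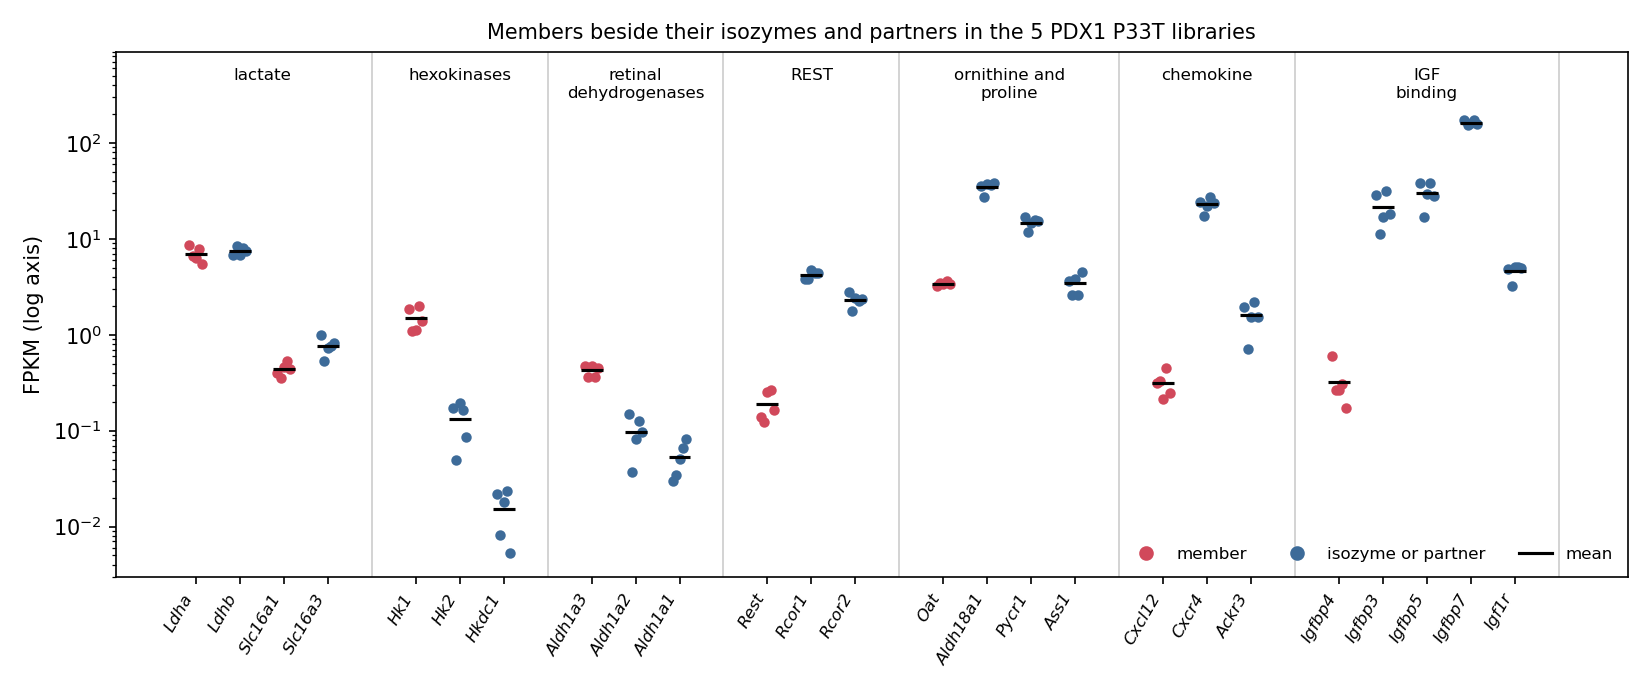
FPKM (log axis) of the members (red) and of their isozymes and partners (blue) in the 5 PDX1 P33T libraries, with the mean as a line. *Hk1* is above *Hk2* by 13.4 times on average, *Ldha* and *Ldhb* are close to each other, and *Cxcl12* and *Igfbp4* are the lowest of their sets.

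Of the 7 members placed in wild-type, *Aldh1a3* was the one with the higher mean in PDX1 P33T. It makes retinoic acid from retinaldehyde, and it measured 0.475, 0.365, 0.470, 0.361 and 0.452 FPKM in the 5 PDX1 P33T libraries, with 40 to 77 reads. In wild-type the lowest, median and highest values were 0.0927, 0.267 and 0.336 FPKM, with 13 to 36 reads. The groups did not overlap, though the gap between the highest wild-type library (0.336) and the lowest PDX1 P33T library (0.361) was small. The means were 0.425 ± 0.0571 FPKM (SD, n = 5) against 0.234 ± 0.0936 (SD, n = 6), 1.82 times higher in PDX1 P33T.

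The difference of *Aldh1a3* came to 0.70 on the log2 scale of FPKM + 0.1 (SE 0.21, 95% interval 0.25 to 1.16). It did not pass the adjustment over all gene IDs (limma, adjusted p = 0.478), and the exact permutation test gave p = 0.00433, the smallest that 6 against 5 libraries allow. Such a full separation, with PDX1 P33T higher, was found in 1.63% of the genes in the fit, and in 6.16% of the 1672 genes placed by reads, to which *Aldh1a3* belongs. Its spread within PDX1 P33T (coefficient of variation 13.5%) equalled what read counting gives (13.5%). Without wild-type replicate 3 the difference was 0.79 on the log2 scale, and the means were 0.425 and 0.213 FPKM.

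The related retinaldehyde dehydrogenases were lower still in PDX1 P33T. *Aldh1a2* stood at 0.0977 ± 0.0424 FPKM and *Aldh1a1* at 0.0525 ± 0.0219, and *Aldh1a3* was above each of them in 5 of 5 libraries, by 5.27 ± 2.79 and 9.36 ± 4.27 times. Among the 10 other dedifferentiation genes of the table that had no placed wild-type value, *Txnip* (35.4 ± 3.96 FPKM), *Cd24a* (33.7 ± 3.15) and *Vim* (12.7 ± 3.51) were the most abundant in PDX1 P33T. *Neurog3*, the endocrine progenitor factor and the 1 gene of that list with a placed row, measured 2.93 ± 0.329 FPKM against 2.70 ± 0.776 in wild-type (log2 fold change 0.16, SE 0.19, adjusted p = 1), and 0 of 1 passed.

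*Gast*, the gastrin gene, which is expressed in the fetal pancreas and largely silent in adult islets, was detected in all 5 PDX1 P33T libraries at 2.10, 2.38, 1.48, 0.971 and 0.885 FPKM. These levels rest on 11 to 26 reads a library and 100 in all, on a gene of 460 bases. Replicates 1 and 2 were the highest, and the coefficient of variation of 42.6% compares with 22.2% from read counting. *Ppy*, the pancreatic polypeptide gene of gamma cells, measured 9821, 7472, 2916, 7857 and 3024 FPKM in the same libraries. Replicates 1 and 2 were among the 3 highest, but replicate 4, second highest in *Ppy*, was second lowest in *Gast*. Replicate 3, lowest in *Ppy*, was in the middle for *Gast*. Whether gamma cells contribute to *Gast* was not tested.

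In wild-type, 4 rows had the length of *Gast*, with means of 1.94, 0.762, 0.348 and 0.173 FPKM, and 2 other genes of that length were measured in PDX1 P33T (*Gm42814* at 1.43 and *Gm29793* at 0.218 FPKM). The row nearest in level read 1.12, 2.36, 3.38, 1.93, 1.15 and 1.71 FPKM, and it cannot be assigned. *Cck* and *Cckbr*, the genes of the related peptide and of the gastrin receptor, were looked up and have no row here.

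*Rest* encodes the zinc finger repressor that keeps neuronal and neuroendocrine genes silent in other cells. It was the lowest member, at 0.139, 0.123, 0.253, 0.264 and 0.165 FPKM in PDX1 P33T (21 to 59 reads), and ranged from 0.0951 over a median of 0.293 to 0.674 FPKM in wild-type. Of the 6 wild-type libraries, 4 were above the whole PDX1 P33T range and replicate 1 was below it. The log2 fold change was -0.47 (SE 0.29, adjusted p = 0.771; exact permutation p = 0.182). It was -0.27 when wild-type replicate 3 was left out and -0.67 when replicate 1 was. Its corepressor genes were more abundant in PDX1 P33T, *Rcor1* at 4.23 ± 0.364 and *Rcor2* at 2.32 ± 0.370 FPKM, and the placed one, *Rcor2*, differed by -0.23 on the log2 scale (SE 0.13, adjusted p = 0.649).

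Of 8 genes that REST represses, 5 had placed wild-type values and 0 of 5 passed, with 2 lower and 3 higher in PDX1 P33T and a median log2 fold change of 0.073, beside -0.044 over all genes in the fit. The most abundant were the secretory granule genes *Chga*, at 5167 ± 726 FPKM in PDX1 P33T against 4921 ± 804 in wild-type, and *Scg2*, at 1487 ± 204 against 1062 ± 291 (log2 fold change 0.53, SE 0.20, adjusted p = 0.478). The largest estimate was that of *Stmn2*, a microtubule regulator of neurons, in the other direction, at 0.145 ± 0.0777 against 0.273 ± 0.103 FPKM (-0.64, SE 0.24, adjusted p = 0.478). *Gjd2*, not placed in wild-type, stood at 70.7 ± 18.6 FPKM.

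*Oat*, which links ornithine to glutamate and proline, was the steadiest member. Its PDX1 P33T values were 3.23, 3.46, 3.40, 3.65 and 3.38 FPKM (194 to 294 reads), a coefficient of variation of 4.41%, below the 6.64% that read counting gives. In wild-type the lowest, median and highest values were 2.49, 3.28 and 7.04 FPKM, and the PDX1 P33T values lay inside that range. The log2 fold change was -0.11 (SE 0.20, adjusted p = 1; exact permutation p = 0.734), and it was 0.070 without wild-type replicate 3, -0.074 without replicate 2 and -0.22 without replicate 1, so no direction can be given. *Aldh18a1* and *Pycr1*, which encode enzymes of proline synthesis, were more abundant at 35.1 ± 4.31 and 14.8 ± 1.86 FPKM, and *Ass1*, of arginine synthesis, was at 3.44 ± 0.822. *Aldh18a1*, placed in wild-type at 37.8 ± 4.45 FPKM, differed by -0.11 on the log2 scale (SE 0.11, adjusted p = 1).

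*Cxcl12*, the chemokine of stromal and endothelial cells, measured 0.314, 0.330, 0.212, 0.452 and 0.246 FPKM in PDX1 P33T (56 to 91 reads) and 0.227, 0.377 and 0.925 FPKM as lowest, median and highest in wild-type. The groups overlapped apart from wild-type replicate 3. The log2 fold change was -0.35 (SE 0.26, adjusted p = 0.945; exact permutation p = 0.258), and -0.15 without wild-type replicate 3. Its receptor genes were higher, *Cxcr4* at 22.9 ± 3.69 FPKM, which was 77.8 ± 21.8 times the level of *Cxcl12* in the same library, and *Ackr3* at 1.60 ± 0.571 FPKM.

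*Igfbp4*, one of the secreted proteins that bind insulin-like growth factors, varied most between PDX1 P33T libraries (coefficient of variation 51.3%, against 15.8% from read counting). It stood at 0.606 FPKM in PDX1 P33T replicate 1 and at 0.267, 0.267, 0.303 and 0.172 in the others (28 to 72 reads), and at 0.146, 0.501 and 0.715 FPKM as lowest, median and highest in wild-type. The log2 fold change was -0.43 (SE 0.31, adjusted p = 0.826; exact permutation p = 0.238), and -0.65 without wild-type replicate 1. Another gene of its length had 0.213 FPKM, which the 3-fold limit does not separate. *Igfbp7* (163 ± 9.36 FPKM), *Igfbp5* (30.4 ± 8.98) and *Igfbp3* (21.3 ± 8.40) were far more abundant than *Igfbp4* in PDX1 P33T. *Igfbp5* also had its highest value, 126 FPKM, in wild-type replicate 3, and neither it (log2 fold change -0.61, SE 0.36, adjusted p = 0.714) nor the receptor gene *Igf1r* (-0.12, SE 0.18, adjusted p = 1) passed. Over the isozymes and partners, 5 of 20 were placed in wild-type and 0 of 5 passed.

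**Figure D3:**
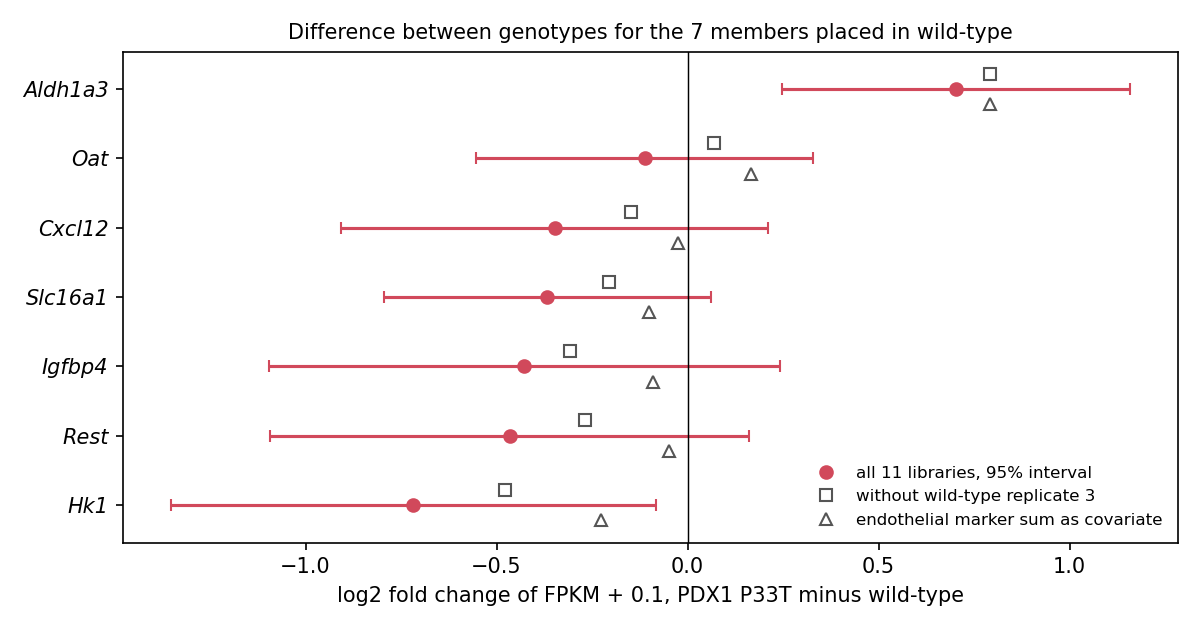
Log2 fold change of FPKM + 0.1, PDX1 P33T minus wild-type, for the 7 members placed in wild-type, with 95% intervals from limma (circles), without wild-type replicate 3 (squares) and with the endothelial marker sum as a covariate (triangles). *Aldh1a3* stays at 0.70 to 0.79, *Hk1* moves from -0.72 to -0.48 and -0.23, and *Oat* moves from -0.11 to 0.070 and 0.17.

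Further disallowed genes were set beside the members. Of 17 listed, 9 were placed in wild-type and 0 of 9 passed, and all 9 estimates were below 0, with a median log2 fold change of -0.50. Over all genes in the fit the median was -0.044, with 3687 of 7252 below 0, and over the genes placed by reads, to which 6 of the 9 belong, it was -0.32, with 982 of 1672 below 0. *Cat*, the catalase gene (-0.43, SE 0.16, adjusted p = 0.478), and *Smad3* (-0.50, SE 0.21, adjusted p = 0.499) were the 2 with an unadjusted limma p below 0.05, where 13% of all genes were. Both were placed by reads, and the share among such genes alone was not determined. *Arhgdib*, known from blood cells, was the most abundant at 5.10 ± 0.351 FPKM in PDX1 P33T and 8.25 ± 5.11 in wild-type, followed by *Gas6* (4.18 ± 0.262 in PDX1 P33T, not placed in wild-type) and *Cat* (3.21 ± 0.304). Wild-type replicate 3 was the highest of the 11 libraries for 8 of the 9, and for 28.0% of all genes in the fit and 40.5% of those placed by reads.

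Levels of the placed members were compared with endothelial markers over the libraries of both genotypes together. Whole islets carry capillaries, and the summed FPKM of the 5 placed endothelial markers (*Pecam1*, *Cdh5*, *Kdr*, *Plvap* and *Flt1*) was 407 in wild-type replicate 3, against 74.1 to 168 in the other wild-type libraries and 55.6 to 129 in PDX1 P33T. All 5 markers had their highest value there, all 5 estimates were below 0 (median log2 fold change -0.67) and 0 of 5 passed. The median of the other 5 wild-type libraries was exceeded in replicate 3 by 2.59 times for *Hk1*, 2.67 for *Cxcl12*, 2.41 for *Rest*, 2.29 for *Slc16a1* and 2.15 for *Oat*, and by 1.499 and 1.27 times for *Igfbp4* and *Aldh1a3*. Within PDX1 P33T, replicates 1 and 4 had the highest sums (123 and 129) and the highest *Ldha* and *Hk1*, and replicate 2 had the lowest sum (55.6) and the lowest *Hk1*, *Slc16a1* and *Rest*. Other members did not follow this order, since replicate 1 had the second lowest *Slc16a1* and *Rest*, and replicate 2 the second highest *Oat* and *Cxcl12*.

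Over the 11 libraries, log2 levels of *Hk1* followed the log2 endothelial sum (Pearson's r = 0.943, permutation p = 0.00016, adjusted over the 7 relations 0.00112; Spearman's coefficient 0.827, permutation p = 0.00246, adjusted 0.0172). Leaving out the libraries farthest from the median of the sum, wild-type replicate 3 and PDX1 P33T replicate 2, r was 0.801. Within the 6 wild-type libraries, replicate 3 included, it was 0.955. The same relation was 0.867 for *Rest* (permutation p = 0.00132, adjusted 0.00462; Spearman's coefficient 0.736, permutation p = 0.0129, adjusted 0.045) and became 0.640 without these libraries. For *Slc16a1* it was 0.873 (permutation p = 0.00258, adjusted 0.00602; Spearman's coefficient 0.682, permutation p = 0.026, adjusted 0.0454) and became 0.348, so that it rests on them.

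The values were also positive for *Cxcl12* (r = 0.777, permutation p = 0.0128, adjusted 0.0186; Spearman's coefficient 0.636, permutation p = 0.0402, adjusted 0.0563), *Igfbp4* (r = 0.686, permutation p = 0.0133, adjusted 0.0186; Spearman's coefficient 0.682, permutation p = 0.0248, adjusted 0.0454) and *Oat* (r = 0.748, permutation p = 0.0279, adjusted 0.0326; Spearman's coefficient 0.118, permutation p = 0.736, adjusted 0.736). Without the 2 libraries r was 0.567, 0.678 and 0.383 for these, so that of *Oat* rests on them. *Aldh1a3* showed no such relation over the pooled libraries (r = -0.182, permutation p = 0.570, adjusted 0.570; Spearman's coefficient -0.382, permutation p = 0.252, adjusted 0.293; r = -0.411 without the 2 libraries). The pooled r and their permutations had no term for genotype, so differences between genotypes enter them. Within wild-type, replicate 3 included, r was 0.908 for *Rest*, 0.860 for *Slc16a1*, 0.862 for *Cxcl12*, 0.702 for *Igfbp4*, 0.878 for *Oat* and 0.262 for *Aldh1a3*, and 5 PDX1 P33T libraries are too few for a value. The wild-type r were not recomputed without replicate 3, so they do not stand apart from that library. The share of all genes with such an r was not determined, and the part of endothelial RNA in the members' levels was not tested.

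**Figure D4:**
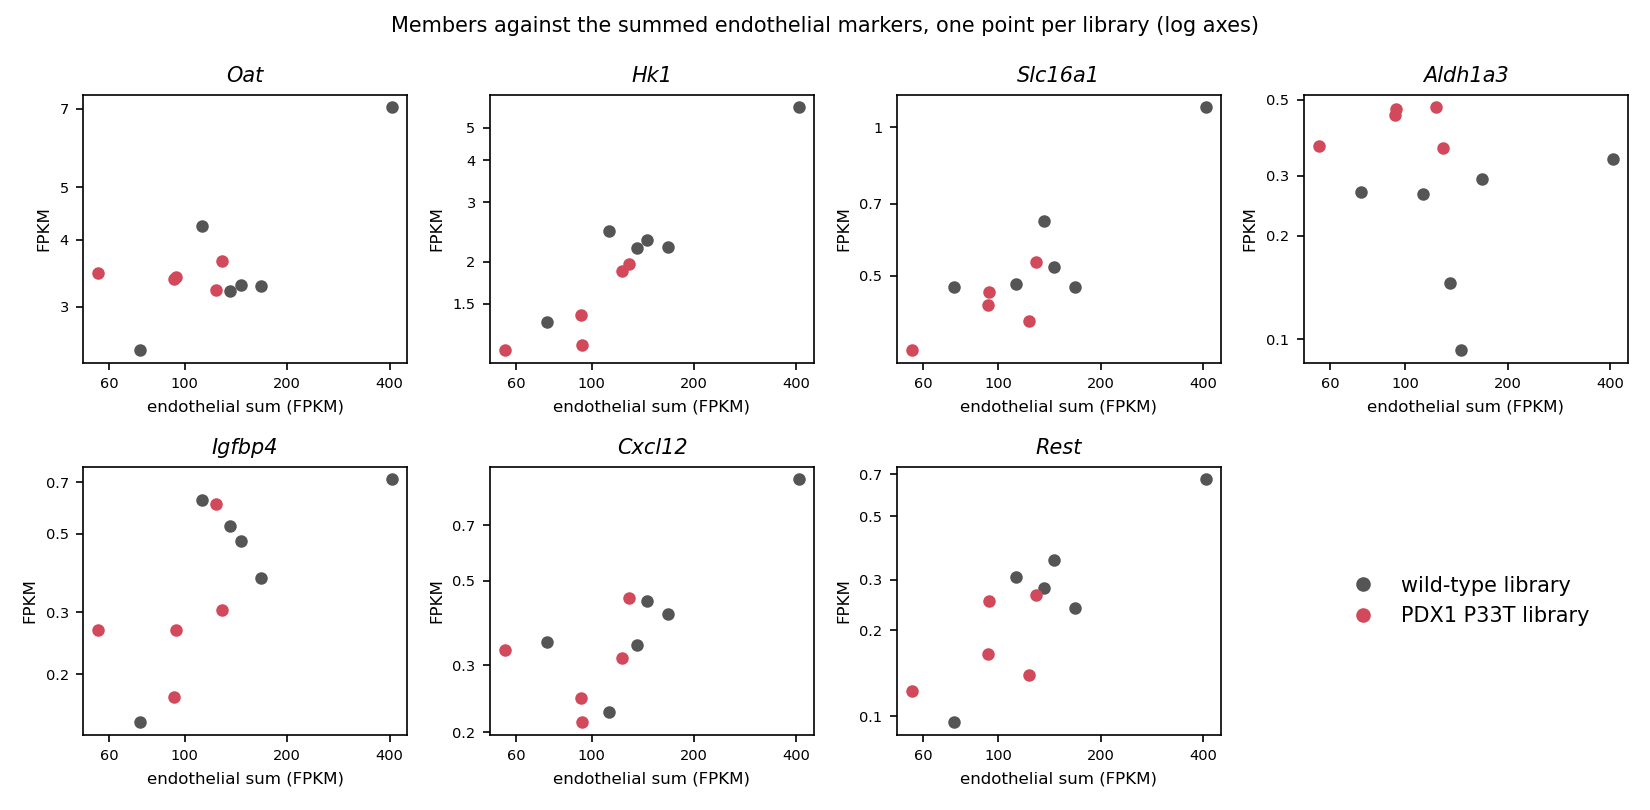
FPKM of the 7 members placed in wild-type against the summed FPKM of 5 endothelial markers, both on log axes, 1 point per library (grey wild-type, red PDX1 P33T). *Hk1* rises with the sum over the libraries of both genotypes, and *Aldh1a3* values do not overlap between genotypes. The sums ran from 74.1 to 407 in wild-type and from 55.6 to 129 in PDX1 P33T.

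Among the 5502 genes of the fit with a mean of at least 1 FPKM, those most like *Hk1* over the 11 libraries were *Ier2* (Pearson's r = 0.991), *Mfge8* (0.991) and *Esam* (0.989). *Rest* was most like *Gprc5a* (0.956), *Rhoj* (0.942) and *Amotl1* (0.939). *Slc16a1* was most like *Fam192a* (0.956), *Eml1* (0.945) and *Set* (0.939), *Cxcl12* was most like *Psmc4* (0.923), *Uchl1* (0.918) and *Sh3bp5l* (0.909), *Oat* was most like *Gnb4* (0.964), *Zdhhc20* (0.963) and *Tpm4* (0.946), and *Igfbp4* was most like *Rfxap* (0.947), *Pdap1* (0.907) and *Gm5526* (0.905). *Aldh1a3* was most like *Igkc* (0.886), an immunoglobulin gene, *Ldlrad3* (0.882) and *Msln* (0.848), an epithelial surface protein. These r describe 11 libraries that include wild-type replicate 3 and were picked as the highest, so no p belongs to them. Each was lower without the 2 libraries farthest from the member's median. They then ran from 0.972 to 0.979 for *Hk1*, 0.622 to 0.763 for *Slc16a1*, 0.593 to 0.769 for *Oat* and 0.495 to 0.759 for *Aldh1a3*.

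Other cell types were looked at by the same marker lists. Acinar markers in PDX1 P33T, led by *Ctrb1*, *Cela1* and *Prss2*, summed to 102 FPKM in replicate 2 and to 8.48 to 18.0 in the other 4 libraries, and no member was highest in replicate 2 except *Gast* (2.38 FPKM). Fibroblast and stellate markers, of which *Pdgfrb* was the most abundant, summed to 22.8 and 17.2 FPKM in wild-type replicates 2 and 3, to 3.99 to 6.21 in the others and to 2.91 to 6.97 in PDX1 P33T (4 of 7 placed, 0 passed). Macrophage markers summed to 59.7 and 58.1 FPKM in wild-type replicates 2 and 3, to 23.1 to 34.0 in the others and to 18.7 to 29.3 in PDX1 P33T (4 of 7 placed, 0 passed). Full separation with PDX1 P33T lower was found in 1.68% of the fit and in 6.58% of the genes placed by reads, and the lists held 1 such gene, placed by reads, *Ngfr*, a neurotrophin receptor of Schwann and stellate cells (0.443 ± 0.196 against 1.51 ± 1.07 FPKM, log2 fold change -1.45, SE 0.34, adjusted p = 0.465). The part of these cells in the members' levels was not tested.

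The islets carried the hormones of their cells. *Ins2* and *Ins1* were at 152890 ± 19886 and 83478 ± 11125 FPKM in PDX1 P33T against 136382 ± 18579 and 77249 ± 14999 in wild-type, *Gcg* at 10618 ± 1336 against 8778 ± 2478, and *Sst* at 5720 ± 775 against 7323 ± 2003. *Ppy* was at 6218 ± 3096 FPKM against 9281 ± 3169 (log2 fold change -0.69, SE 0.35, limma adjusted p = 0.601), the largest estimate among these cells' placed markers. None of the 10 placed markers of beta, alpha, delta and gamma cells passed. Of the remaining lists, 1 of 9 acinar, 1 of 7 ductal, 1 of 4 lymphocyte, 2 of 3 red cell and 3 of 5 Schwann markers were placed and none of these 8 passed.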

How the data were processed

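Per the labels and the methods, the authors trimmed reads (fastp), mapped them (HISAT2), assigned them to genes (featureCounts) and deposited FPKM for each library. The submitters' processing notes name fastp 0.23.1, HISAT2 2.0.5, featureCounts 1.5.0-p3 and DESeq2 1.20.0 with GRCm39 (mm39), and the annotation is not given in the sources used here. Stranded and unstranded library protocols are both named, so overlapping and antisense genes are uncertain. The members, gene lists and tests were chosen with earlier results of these data known.

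Gene names came from a table that matched 18787 of 19329 IDs, and 124 of 130 listed symbols had a row. Library totals, and the lengths at which all FPKM of a row are whole reads (20 to 130000 bases), were recovered from the deposited FPKM, with 98.3% of known lengths found. Wild-type rows were identified by their reads in the part held here of the study's supplementary gene list (1711 genes, 13 of them on their own rows) or by equal length, at least 100 reads in each genotype and means within 3-fold with no rival of that length within 3-fold (5580 genes). Where the reads allowed a check, 725 of 725 were right under the 3-fold limit and 819 of 821 under the 2-fold limit. With the true row removed, 7 and 9 of 1711 genes got another row. Genes without a recovered length, with fewer than 100 reads or without another row of their length count in the 1711 but could not get one. The share among genes that could was not determined. These limits were chosen after the values were seen. The 39 genes at 0 in all PDX1 P33T libraries were left out.

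limma 3.58.1 in R 4.3.3 (trend and robust options) was fitted to log2(FPKM + 0.1) of 7252 genes (8269 with the 2-fold limit) without covariates, and p-values were Benjamini-Hochberg adjusted over 19329 IDs. A fold change on this scale understates that of low genes. Calls needed an adjusted p up to 0.05 and a change of 1.5-fold or more. Single members were also tested by the two-sided exact permutation test over 462 splits, and relations with 100000 permutations. Named genes were the members, their isozymes and partners, the 3 genes most like each member, and from each list up to 3 called, non-overlapping or most abundant genes, of which 1 partner gene is not reported here. Python 3.11.15 was used with numba 0.67.0, scipy 1.17.1, pandas 2.3.3, numpy 2.4.6 and matplotlib 3.10.9. Read numbers cover counting error only. The fit and the length search were tested on simulated data. Alternatives were the pseudocount 1, a mean of at least 1 FPKM, each library left out, replicate blocks, a log2 threshold of 1.5, median scaling, other limits on rows, an endothelial covariate and adjustment over fitted genes.

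Same-numbered libraries were not paired: the correlation of their deviations from the group means ran from -0.519 to 0.0692 for title numbers.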

Additional observations from a re-analysis of the deposited data

Results flagged for a closer look

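Values that stood apart from the others of their group by Dixon's criterion were found in 8 of 39 groups of values tested, where chance gives about 1 in 20. The groups share libraries and some genes, and *Cpb1* is in both acinar groups. They are therefore not independent, and no excess is read from this count. Wild-type replicate 3 was the highest library for *Hk1* (the gap to the next library was 0.740 of the range), *Slc16a1* (0.727), *Cxcl12* (0.690), the endothelial sum (0.719) and the summed isozymes and partners (0.680, 5 placed genes). PDX1 P33T replicate 2 was the highest library for the acinar markers, with a gap of 0.898 of the range over the 7 markers in the table and 0.958 for *Cpb1*, the 1 acinar marker placed in wild-type. It was also the lowest PDX1 P33T library for the summed isozymes and partners (0.745). The source of these values was not tested.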

How the results depend on the processing

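No member was called under any of 22 alternatives. Not all of these could add a call. A log2 threshold of 1.5 is stricter than the main one, and the filter on the mean left only *Hk1* of the members in the 3-fold fit. *Oat* and *Igfbp4* were in the count only where the 2-fold limit was used, since the 3-fold fit did not hold them. The log2 fold change of single members was recomputed under 16 of the 22 alternatives, or 17 for *Hk1* and *Oat*, which pass the filter on the mean. Of the 7 members with a wild-type value, 6 kept their direction. *Oat* (-0.11) ranged from -0.22 to 0.070 when 1 library was left out, turning over without wild-type replicate 3, and was 0.070 with the number in the library name as a replicate block and 0.17 with the endothelial covariate. With that covariate the log2 fold change was -0.23 for *Hk1*, -0.048 for *Rest*, -0.10 for *Slc16a1*, -0.026 for *Cxcl12*, -0.089 for *Igfbp4* and 0.79 for *Aldh1a3*. With pseudocount 1 it was 0.21 for *Aldh1a3*, -0.16 for *Slc16a1*, -0.15 for *Rest*, -0.13 for *Cxcl12* and -0.16 for *Igfbp4*. Over those alternatives the smallest limma adjusted p of *Aldh1a3* was 0.176 and that of *Hk1* 0.176. In the 2-fold fits it was 0.859 for *Oat* and 0.215 for *Igfbp4*. The 6 genes called became 3 with pseudocount 1, 3 with a mean of at least 1 FPKM, 2 at a log2 threshold of 1.5 and 3 with rows within 2-fold, and leaving out 1 library gave 3 to 8, with 3 without wild-type replicates 2, 5 or 6 or PDX1 P33T replicates 1, 3, 4 or 5. Same-numbered libraries share only a number: the replicate block left 1 call by title number and 3 by library name, and no PDX1 P33T library correlated best with its own number. The cause of these shifts was not tested. Depth limits *Gast*, *Aldh1a3*, *Igfbp4* and *Rest*, which had at most 94 reads in a library, and 2 members without a wild-type row could not be compared at all.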
